A study of Oryza sativa Japonica Group with 17 samples.

Results

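The phosphate uptake and signalling genes followed here, across rice roots that lack a cytosolic glutamine synthetase, are a phosphate transporter annotated PHT1-2 (LOC4335115), the SPX protein gene OsSPX2 (LOC4328654) and the transcription factor gene OsPHR3 (LOC4328249). They were found by symbol or synonym among probe sets that the platform annotation pairs with a single gene. Each had 1 probe set, so the members were 3 of 57258 probe sets tested and 3 of 17905 genes. The members were chosen by signals measured on these same arrays, with differences between groups known, and which comparison chose them is not stated. Their levels and differences are therefore given as a description, with no p-value.

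The study asked how roots change when cytosolic glutamine synthetase, which joins ammonium to glutamate, is lost. Roots of 17 plants of the rice cultivar Nipponbare were measured, each on its own Affymetrix rice array, in 6 groups. All plants grew for 18 days in water culture with 1 mM ammonium chloride as the nitrogen source, and phosphate was supplied in the same solution to every group. Values are log2 signals summarised by RMA (robust multi-array average).

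Plants homozygous for a disrupted OsGS1;1 came from insertion lines named NC2373 (n = 2) and ND8037 (n = 3). They are called NC2373 and ND8037 homozygotes, and gs1;1 in the plots. Their controls, called NC2373 null (n = 3) and ND8037 null (n = 3), lack the OsGS1;1 insertion and segregated from heterozygous plants of the same line. The gs1;2 group (n = 3) was homozygous for a disrupted OsGS1;2. The labels list no segregated null for it, and its control was wild type (n = 3). Other differences of those plants from wild type, if any, thus cannot be told apart from the mutation itself.

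The arrays fall into 2 sets by their signal distributions. Array medians were 4.68 to 4.72 on the 6 ND8037 arrays and 5.38 to 5.41 on the other 11, so levels are set side by side only within a set. The disrupted genes were lower than in the controls where the labels place the disruptions, but still above the array medians. OsGS1;1 means were 8.75 in NC2373 homozygotes and 8.06 in ND8037 homozygotes, and the OsGS1;2 mean was 7.01 in gs1;2. The OsGS1;1 difference from the null was -3.37 in NC2373 homozygotes and -2.24 in ND8037 homozygotes, and the OsGS1;2 difference from wild type was -5.43 in the gs1;2 mutant, on the log2 scale. Of the root marker genes, the silicon transporter gene LSI1 was bright in every group. SCR1, another of these root markers, lay below the array medians in every group. Its group means were 3.73 to 4.19 in the 11-array set, and 3.33 and 3.50 on the ND8037 arrays. RNA was extracted from whole roots, so a smaller number of cells of a type and less transcript per cell cannot be told apart.

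Plants take up phosphate through PHT1 proteins, plasma membrane carriers that move phosphate together with protons. Their genes are controlled by PHR proteins, MYB-type transcription factors that bind promoters of phosphate starvation genes and switch them on. SPX proteins sense phosphate status through inositol pyrophosphates: when phosphate is plentiful they bind PHR proteins and keep them from their targets. In rice, OsPHR2 is the best known PHR activator, OsPHR3 acts partly redundantly with it and has also been tied to nitrogen use, and OsSPX1 and OsSPX2 are nuclear inhibitors of OsPHR2.

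The transporter needs a remark on its name. LOC4335115 carries the synonym PHT1-2, but also OsPht1;4, OsPT4 and PHT1-4. A different gene, LOC4331637, carries the synonyms OsPht1;2 and OsPT2. The member is written PHT1-2/PHT1-4 from here on, and LOC4331637 is described separately. The probe set of PHT1-2/PHT1-4 has the suffix that Affymetrix gives to sets with probes that may match other sequences. Its neighbour in the RefSeq gene table (assembly ASM3414082v1), the related transporter gene PHT1-13, and the nearby PHT1-5 have no probe set of a single gene here, so their share in this signal was not tested.

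In gs1;2 roots the transporter, the SPX gene and the PHR gene were all higher than in wild type, by 0.88 to 1.05 on the log2 scale. In roots of ND8037 homozygotes the transporter and OsPHR3 were lower than in their null, and OsSPX2 leaned the same way with overlapping groups. In roots of NC2373 homozygotes none of the 3 was separated from its null. The plot of member signals by array shows these levels.

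**Figure D1:**
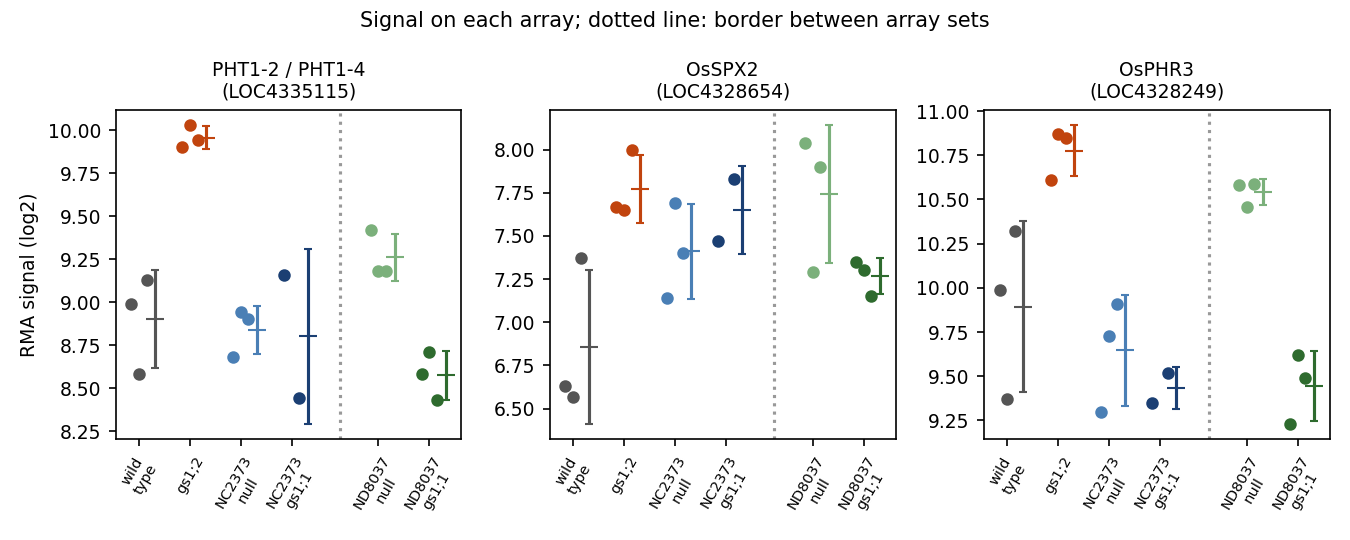
Signal of the 3 members on every array (y axis, RMA signal, log2, each panel with its own range), by group. Dots are arrays, horizontal ticks are group means and bars are 1 SD. The dotted line parts the ND8037 arrays from the other 11, and levels should not be read across it. For PHT1-2/PHT1-4 and OsPHR3 the gs1;2 dots lie above all other dots left of the line, and the ND8037 homozygote dots lie below the ND8037 null dots.

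The transporter PHT1-2/PHT1-4 stood at 8.99, 8.58 and 9.13 on the wild-type arrays (plants 627, 628 and 629), a mean of 8.90 ± 0.28 (SD, n = 3). On the gs1;2 arrays (plants 354, 355 and 356) it stood at 9.90, 10.03 and 9.94, a mean of 9.95 ± 0.06 (SD, n = 3). The gs1;2 group lay wholly above wild type. It also lay above all 8 other arrays of its array set, the NC2373 arrays included. The difference was 1.05 (SE 0.166) on the log2 scale, a 2.08-fold higher signal in gs1;2.

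In the NC2373 line PHT1-2/PHT1-4 stood at 8.68, 8.94 and 8.90 in the null plants (152, 153 and 154), a mean of 8.84 ± 0.14 (SD, n = 3). The 2 NC2373 homozygotes lay at 9.16 (plant 117) and 8.44 (plant 118), a mean of 8.80 ± 0.51 (SD, n = 2). The homozygotes thus lay on either side of the whole null group. Their mean difference of -0.04 (SE 0.185) hides this spread: it was -0.39 without plant 117 and 0.32 without plant 118, so its sign is set by a single plant.

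In the ND8037 line PHT1-2/PHT1-4 stood at 9.42, 9.18 and 9.18 in the null plants (156, 157 and 158), a mean of 9.26 ± 0.14 (SD, n = 3). The homozygotes (123, 124 and 125) stood at 8.58, 8.71 and 8.43, a mean of 8.57 ± 0.14 (SD, n = 3). All 3 homozygotes were below all 3 nulls. The difference was -0.69 (SE 0.166), so the signal in the homozygotes was 0.62 times that of the null.

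OsSPX2 encodes an inhibitor of PHR proteins. Wild type gave 6.63, 6.57 and 7.37, a mean of 6.86 ± 0.45 (SD, n = 3). The gs1;2 plants gave 7.67, 7.65 and 8.00, a mean of 7.77 ± 0.20 (SD, n = 3). The groups did not overlap, and wild-type plant 629 lay nearest to the mutants. The difference was 0.91 (SE 0.223), or 1.88-fold.

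On the NC2373 arrays OsSPX2 ran from within the wild-type range to within the gs1;2 range. NC2373 null gave 7.14, 7.69 and 7.40, a mean of 7.41 ± 0.28 (SD, n = 3), and NC2373 homozygotes gave 7.47 and 7.83, a mean of 7.65 ± 0.25 (SD, n = 2). These groups overlapped, with a difference of 0.24 (SE 0.249). Only 6 of the 8 other arrays of the set lay below all gs1;2 arrays, because null plant 153 and homozygote 118 reached the gs1;2 range.

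NC2373 null itself was 0.55 (SE 0.223) above wild type for OsSPX2, with overlapping groups. Neither group carries the OsGS1;1 insertion, so the gap to the mutant depends on which control is read. The mean of gs1;2 was 0.91 above wild type, and it stood at 7.77 against 7.41 in NC2373 null.

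In the ND8037 line OsSPX2 gave 8.04, 7.29 and 7.90 in the null plants, a mean of 7.74 ± 0.40 (SD, n = 3). The homozygotes gave 7.35, 7.30 and 7.15, a mean of 7.27 ± 0.11 (SD, n = 3). Null plant 157 lay inside the range of the homozygotes, so the groups overlapped. The difference was -0.48 (SE 0.223).

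OsPHR3 encodes the transcription factor. Wild type gave 9.99, 9.37 and 10.32, a mean of 9.90 ± 0.48 (SD, n = 3), and gs1;2 gave 10.61, 10.87 and 10.85, a mean of 10.78 ± 0.14 (SD, n = 3). All gs1;2 plants were above all wild-type plants and above all 8 other arrays of the set. The difference was 0.88 (SE 0.198), or 1.84-fold. Wild-type plant 628 was the lowest of its group for all 3 members, and without it the OsPHR3 difference was 0.62.

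In NC2373 null OsPHR3 stood at 9.30, 9.73 and 9.91, a mean of 9.65 ± 0.31 (SD, n = 3). NC2373 homozygotes stood at 9.35 and 9.52, a mean of 9.43 ± 0.12 (SD, n = 2). Both homozygotes fell within the null range, and the difference was -0.21 (SE 0.221).

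ND8037 null held OsPHR3 at 10.58, 10.46 and 10.59, a mean of 10.55 ± 0.07 (SD, n = 3). ND8037 homozygotes held it at 9.23, 9.62 and 9.49, a mean of 9.45 ± 0.20 (SD, n = 3). All homozygotes were below all nulls. The difference of -1.10 (SE 0.198), or 0.47 times the null signal, was the largest drop of a member in these comparisons.

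**Figure D2:**
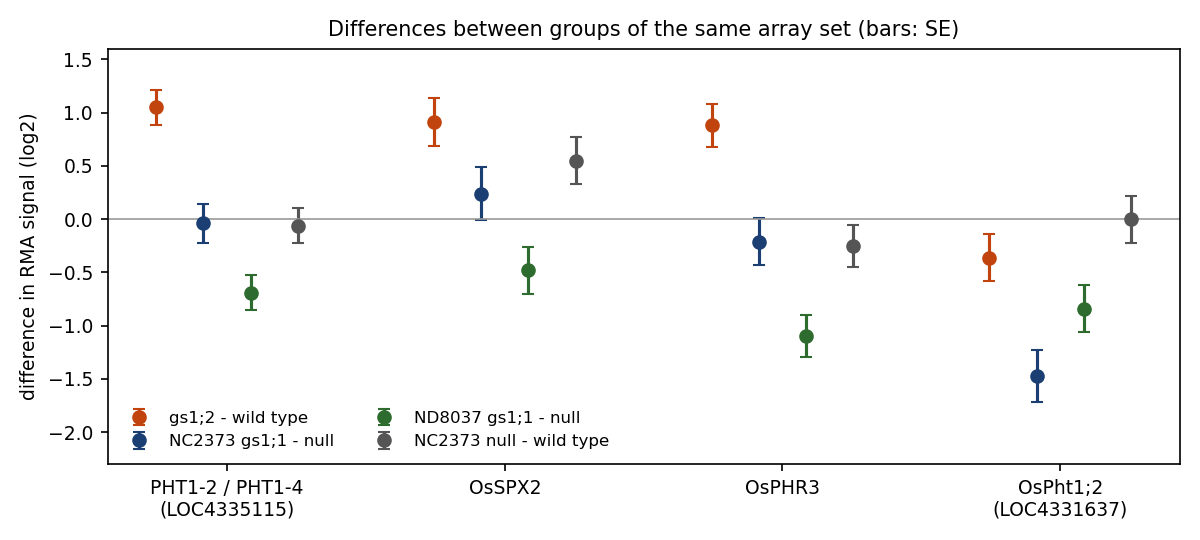
Differences in RMA signal (y axis, log2) between groups of the same array set, for the 3 members and for LOC4331637 (x axis). Dots are limma differences and bars are 1 SE. The members lie at 0.88 to 1.05 for gs1;2 minus wild type and at -1.10 to -0.48 for ND8037 homozygotes minus null, while LOC4331637 lies at -1.47 and -0.84 in the homozygotes and at -0.36 in the mutant.

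The order of group means was read within the 11-array set. For PHT1-2/PHT1-4 it ran gs1;2, wild type, NC2373 null, NC2373 homozygotes, and the order was the same for OsPHR3. In both, only the step from gs1;2 to wild type was free of overlap, and the lower 3 groups overlapped with their neighbours. For OsSPX2 the order was gs1;2, NC2373 homozygotes, NC2373 null, wild type, and every neighbouring pair overlapped.

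Counts of members against all probe sets give the background of each comparison. For gs1;2 minus wild type all 3 members lay wholly above the control, as did 13.2% of all probe sets, and all 3 passed the adjusted threshold of limma, as did 1.67% of all probe sets in that direction. That count fell to 1 of 3 when any one of wild-type plants 627 and 628 or gs1;2 plants 355 and 356 was left out. It was also 1 of 3 when only the arrays of the same set entered the fit. Nothing is read from these or any later counts of members, since the members were chosen with results known.

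For ND8037 homozygotes, 2 of 3 members (PHT1-2/PHT1-4 and OsPHR3) lay wholly below the null, as did 16.5% of all probe sets, and the same 2 passed the adjusted threshold, beside 4.68% of all probe sets called lower. The count was 1 of 3 without homozygote 123, homozygote 125 or null 156. For NC2373 homozygotes limma called 0 of 3 members, beside 7.65% of all probe sets called in either direction. At an unadjusted p under 0.05 there were 0 of 3, beside 21.1% of all probe sets. Averaged over both lines, the homozygote difference was -0.36 (SE 0.124) for PHT1-2/PHT1-4, -0.12 (SE 0.167) for OsSPX2 and -0.66 (SE 0.148) for OsPHR3. In that average 1 of 3 members was called, OsPHR3, beside 7.09% of all probe sets called lower, and the count was 2 of 3 without NC2373 homozygote 117.

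The lines of homozygotes were also set against each other, as the ND8037 difference minus the NC2373 difference. It was -0.65 (SE 0.249) for PHT1-2/PHT1-4, -0.72 (SE 0.335) for OsSPX2 and -0.89 (SE 0.297) for OsPHR3. For PHT1-2/PHT1-4 it was -0.30 without NC2373 homozygote 117 and -1.01 without plant 118. Limma called 0 of 3 members here, beside 0.00873% of all probe sets. At an unadjusted p under 0.05 there were 3 of 3 members, beside 16.0% of all probe sets. Again nothing is read from these counts, since the members were chosen with results known. The lines were measured in different array sets, so the insertion line and the array set cannot be separated in this contrast.

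Between controls, NC2373 null minus wild type was -0.06 (SE 0.166) for PHT1-2/PHT1-4 and -0.25 (SE 0.198) for OsPHR3, with overlapping groups. Limma called 0 of 3 members, beside 0.913% of all probe sets. At an unadjusted p under 0.05 there was 1 of 3, beside 12.8% of all probe sets.

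Markers of other tissue and signs of RNA quality were read beside these values. Of 10 shoot genes with a probe set, limma called 7 higher in NC2373 homozygotes, beside 7.65% of all probe sets called in either direction. It called 5 higher in ND8037 homozygotes, beside 9.08%. The mean signal of the shoot genes per array ran from 7.55 to 8.19 in NC2373 null and 9.52 to 9.89 in NC2373 homozygotes. In the ND8037 line it ran from 7.08 to 7.72 in the null and 8.07 to 9.29 in the homozygotes. It ran from 6.33 to 7.47 in wild type and 6.01 to 6.64 in gs1;2, where limma called 0 of 10 and 2 had an unadjusted p under 0.05, beside 19.3% of all probe sets. The shoot signal was thus higher in both lines of homozygotes, and its part in the member differences was not tested.

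Of 10 root genes, 2 were called lower in gs1;2, LSI2 (-0.81) and YSL15 (-2.20), beside 4.03% of all probe sets called in either direction. The mean of the 10 root genes per array ran from 8.59 to 8.88 in gs1;2 against 9.10 to 9.36 in wild type. In NC2373 and ND8037 homozygotes only YSL15 was called by the brightest probe set of each gene, and it was higher, by 2.30 and 1.46. The shares of all probe sets called there in either direction were 7.65% and 9.08%. For the root gene CASP1 the brightest probe set gave -0.87 in NC2373 homozygotes (limma adjusted p = 0.0708). A dimmer CASP1 probe set was called there, at -0.84 (limma adjusted p = 0.0429), but not in ND8037 homozygotes, at -0.17 (limma adjusted p = 0.687). The signal gap between 3' and 5' probe sets of control genes is a sign of RNA quality or labelling, and the array holds 5 such pairs named for actin or GAPDH. In 1 GAPDH pair it was 2.19 to 2.27 in ND8037 null and 1.91 to 2.12 in ND8037 homozygotes, without overlap. The other 4 pairs overlapped between these groups. Of these, a GAPDH pair not named for rice differed in the same direction, with means of 2.23 in the null and 1.87 in the homozygotes. The other rice GAPDH pair differed in the opposite direction (-0.18 and 0.07). Means were 4.84 and 4.87 for the rice actin pair, and -0.93 and -0.89 for the other actin pair. The rice actin gap was 2.81 ± 0.06 (SD, n = 3) in wild type and 2.91 ± 0.09 (SD, n = 3) in gs1;2. The part of root makeup and RNA quality in the member differences was not tested.

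LOC4331637, the gene named OsPht1;2, is known in rice as a low-affinity phosphate transporter of roots. It was added after its annotation was seen. Levels were 9.42, 9.25 and 9.09 in wild type and 8.95, 9.08 and 8.63 in gs1;2, a difference of -0.36 (SE 0.219, limma adjusted p = 0.398). In gs1;2 it was thus not called, and its value lay below wild type where PHT1-2/PHT1-4 lay above.

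In both lines of homozygotes LOC4331637 fell. NC2373 null stood at 9.55, 9.09 and 9.12 and NC2373 homozygotes at 7.60 and 7.97, a difference of -1.47 (SE 0.245, limma adjusted p = 0.00328). ND8037 null stood at 8.24, 8.40 and 8.60 and ND8037 homozygotes at 6.97, 7.91 and 7.86, a difference of -0.84 (SE 0.219, limma adjusted p = 0.0287). All homozygotes were below all nulls in each line, and the mean over lines was -1.15 (SE 0.164, limma adjusted p = 0.000481).

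The fall of LOC4331637 in NC2373 homozygotes stood beside a PHT1-2/PHT1-4 difference of -0.04 in the same roots. The ND8037 call was lost without homozygote 123, where the difference was -0.53 (limma adjusted p = 0.106), without null 157 (adjusted p = 0.0778) and without null 158 (adjusted p = 0.0998). It was also lost when only the ND8037 arrays were fitted (limma adjusted p = 0.0852).

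The other genes of phosphate transport and signalling came from a list set by name, of which 20 genes had a probe set of a single gene. LOC4331637, called lower in both lines of homozygotes, was added later and is not among these 20 or in their counts. In gs1;2, where the members were high, limma called 0 of 20, beside 4.03% of all probe sets called in either direction. At an unadjusted p under 0.05 there were 4 of 20, a share near the 19.3% of all probe sets. The median difference of these 20 was -0.033, against 0.022 over all probe sets. In NC2373 homozygotes limma called 1 lower and 0 higher, beside 7.65% of all probe sets, with a median of 0.013 against -0.020. In ND8037 homozygotes it called 1 higher and 1 lower, beside 9.08% of all probe sets, with a median of -0.022 against -0.036. Averaged over both lines, 2 were higher, 1 was lower and 17 did not pass, beside 14.0% of all probe sets called. With single plants left out, the count over both lines was 1 without NC2373 homozygote 118, and the NC2373 count was 0 without homozygote 117, null 152 or null 153. The ND8037 count was 0 without homozygote 123 or null 157 and 1 without null 158, and the gs1;2 count was 1 without wild-type plant 629.

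**Figure D3:**
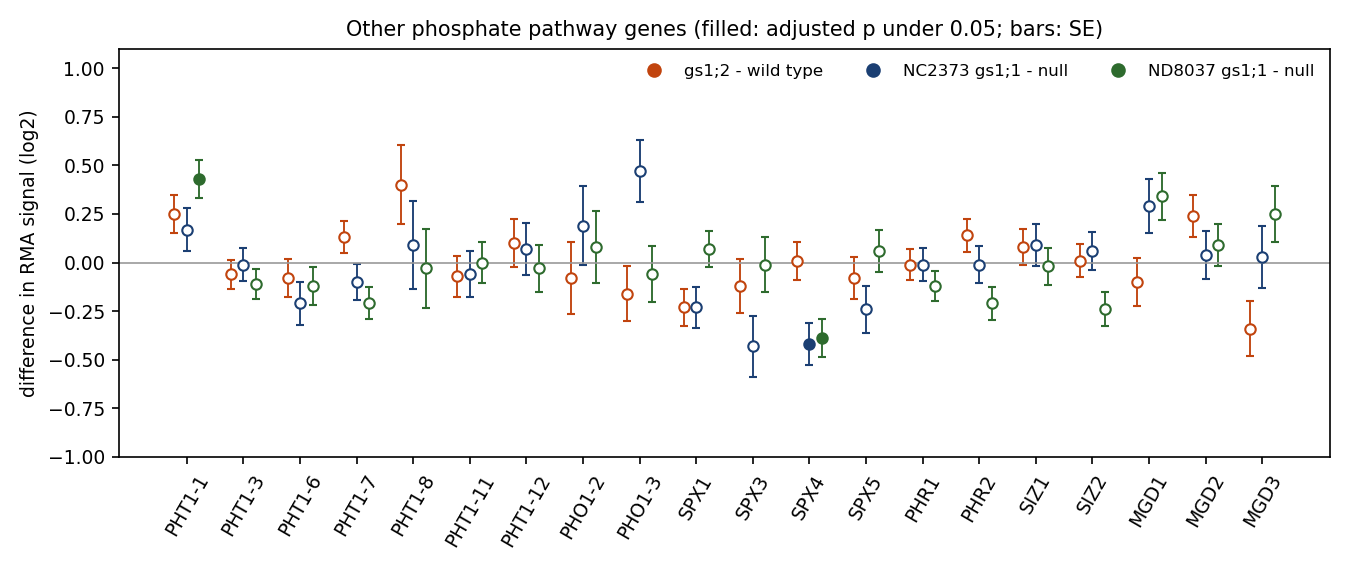
Differences in RMA signal (y axis, log2) for 20 other phosphate genes (x axis, PHT1 family first, then PHO1, SPX, PHR, SIZ and MGD genes). Dots are limma differences, filled where the adjusted p is under 0.05, and bars are 1 SE. The filled dots are PHT1-1 in ND8037 and SPX4 in both lines, and no gs1;2 dot is filled. LOC4331637 is not among the genes shown.

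Among the 7 other PHT1 transporters, PHT1-6, PHT1-7, PHT1-11 (induced by mycorrhiza in rice) and PHT1-12 lay below the array median in every group of the 11-array set. PHT1-1, a transporter active in rice at ample phosphate, rose in ND8037 homozygotes from 9.57, 9.43 and 9.53 to 9.92, 9.99 and 9.90. The difference was 0.43 (SE 0.099, limma adjusted p = 0.016). All 3 homozygotes were above all 3 nulls.

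In NC2373 the PHT1-1 difference was 0.17 (SE 0.111, limma adjusted p = 0.42), and the mean over lines was 0.30 (SE 0.074, limma adjusted p = 0.0135). The other PHT1-1 probe set gave 0.10 (SE 0.206, limma adjusted p = 0.80) for that mean. The ND8037 call was lost without homozygote 123 (adjusted p = 0.051) or null 157 (adjusted p = 0.064), and the mean without NC2373 homozygote 118 (limma adjusted p = 0.0597). In gs1;2 PHT1-1 gave 0.25 (SE 0.099, limma adjusted p = 0.171), so it was not called where PHT1-2/PHT1-4 was high. The other PHT1-1 probe set gave -0.33 in gs1;2, -0.27 in NC2373 homozygotes and 0.48 in ND8037 homozygotes, none of them called. The direction in gs1;2 and in NC2373 homozygotes thus differed between the PHT1-1 probe sets. Among these 7 listed transporters, which leave out the member and LOC4331637, PHT1-8, a main uptake carrier in rice, gave the highest value in gs1;2, at 0.40 (SE 0.204, limma adjusted p = 0.303), and PHT1-6 gave the lowest of the 7 in NC2373 homozygotes, at -0.21 (SE 0.11, limma adjusted p = 0.293).

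Of the PHO1 genes, which in rice serve phosphate loading into the xylem or are relatives of the gene that does, neither was called in any comparison. PHO1-3 gave the highest value, 0.47 in NC2373 homozygotes (SE 0.16, limma adjusted p = 0.0914), but its mean signal lay below the array medians in every group. Its value in gs1;2 was -0.16 (SE 0.143, limma adjusted p = 0.611).

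SPX4, which in rice holds OsPHR2 in the cytoplasm and links nitrate to phosphate signalling, was the only listed SPX gene that limma called. It stood at 9.70, 9.85 and 9.83 in NC2373 null and at 9.18 and 9.57 in NC2373 homozygotes, a difference of -0.42 (SE 0.109, limma adjusted p = 0.0316). In ND8037 it stood at 9.17, 9.37 and 9.26 in the null plants and at 8.74, 8.94 and 8.93 in the homozygotes, a difference of -0.39 (SE 0.098, limma adjusted p = 0.0223). The homozygotes lay below their nulls in both lines, and the mean over lines was -0.40 (SE 0.073, limma adjusted p = 0.00212).

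The other SPX4 probe set gave -0.04 (SE 0.116, limma adjusted p = 0.87) for that mean, so the fall rests on one probe set. Without NC2373 homozygote 117 the NC2373 difference was -0.22 (limma adjusted p = 0.339), and that call was lost without any one of the 3 nulls too, at adjusted p-values of 0.0503 to 0.081. The ND8037 call was lost without homozygote 123 (limma adjusted p = 0.099), null 157 (adjusted p = 0.0863) or null 158 (adjusted p = 0.0591). In gs1;2, where OsSPX2 stood high, SPX4 gave 0.01 (SE 0.098, limma adjusted p = 0.961).

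**Figure D4:**
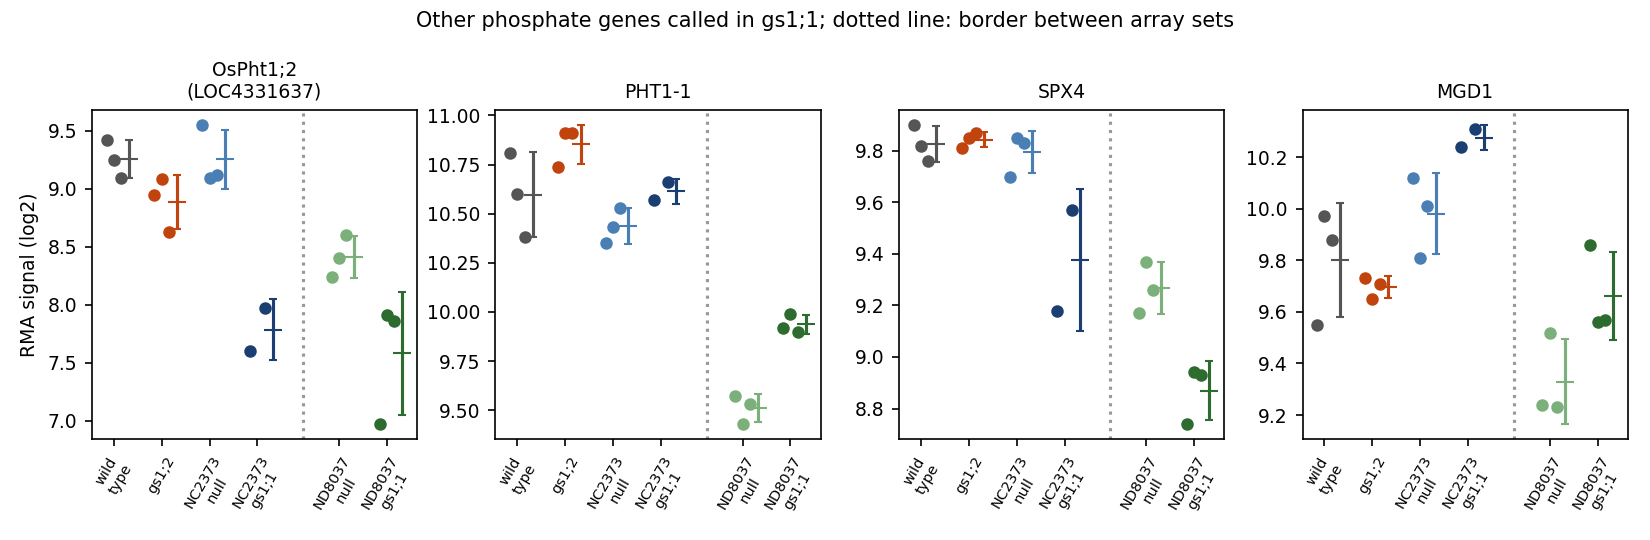
Signal on every array (y axis, RMA signal, log2, each panel with its own range) of LOC4331637, PHT1-1, SPX4 and MGD1, by group. Dots are arrays, ticks are means and bars are 1 SD, and the dotted line parts the array sets. LOC4331637 and SPX4 lie lower in the homozygotes than in the nulls of both lines, and PHT1-1 lies higher. For PHT1-1 and SPX4 only the probe set with the highest mean signal is shown.

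SPX3, a repressor of phosphate starvation responses in rice, gave the lowest value of its group in NC2373 homozygotes, at -0.43 (SE 0.157, limma adjusted p = 0.119). Its signal was near the array medians, with means of 5.44 in NC2373 null and 5.02 in NC2373 homozygotes. In that line 3 of the 4 listed SPX genes had an unadjusted limma p under 0.05, beside 21.1% of all probe sets. Their median difference was -0.327 there, against -0.020 over all probe sets. In ND8037 homozygotes it was 1 of 4, beside 24.3%, and the median was 0.023 against -0.036. SPX1, which acts alongside OsSPX2 on OsPHR2, gave -0.23 (SE 0.094, limma adjusted p = 0.198) in gs1;2. Its value there lay on the opposite side of 0 from the 0.91 of OsSPX2.

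Neither of the other measured PHR genes was called in any comparison. PHR2, the main activator in rice, gave 0.14 (SE 0.084, limma adjusted p = 0.408) in gs1;2 and -0.21 (SE 0.084, limma adjusted p = 0.142) in ND8037 homozygotes. The corresponding OsPHR3 differences were 0.88 and -1.10. PHR1 gave -0.01 (SE 0.078, limma adjusted p = 0.967) and -0.12 (SE 0.078, limma adjusted p = 0.363).

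Among genes further out in the pathway, SIZ1 and SIZ2, SUMO ligase genes, were not called in any comparison. SIZ2 gave the lower extreme, -0.24 in ND8037 homozygotes (SE 0.086, limma adjusted p = 0.0918). MGD1, a galactolipid synthase gene, rose over both lines by 0.31 (SE 0.092, limma adjusted p = 0.0339), with all homozygotes above all nulls in each line. That call was lost in 7 of 11 fits that left out a plant, at adjusted p-values of 0.0514 to 0.109. The shoot signal was also higher in both lines of homozygotes, and its part in the MGD1 difference was not tested. MGD3 gave -0.34 (SE 0.143, limma adjusted p = 0.209) in gs1;2.

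The members were also compared with each other across arrays, after the mean of each array set was subtracted. Over the 17 arrays PHT1-2/PHT1-4 and OsPHR3 had a Pearson correlation of 0.895. OsSPX2 was less alike to both, at 0.554 with PHT1-2/PHT1-4 and 0.533 with OsPHR3. These values share the same arrays and groups, and the differences between groups make up part of them.

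Among 2472 genes with a name beyond an identifier, those most like PHT1-2/PHT1-4 were OsbZIP37 (0.918), OPR-1 (0.902), LAC24 (0.899), OsPHR3 (0.895) and HDR1 (0.894). LAC24, a laccase gene, had differences of 2.13 in gs1;2, -0.35 in NC2373 homozygotes and -0.90 in ND8037 homozygotes, and OsbZIP37, a basic leucine zipper gene, had 1.16, -0.19 and -0.68. Those most like OsPHR3 were OsRCCR1 (0.950), ADIPOR3 (0.947), CML8 (0.945), OsWNK7 (0.944) and HK3 (0.944). OsRCCR1, a chlorophyll breakdown reductase gene, had differences of 0.68, -0.18 and -0.80 in the same order. The genes nearest to OsSPX2 reached lower correlations, with LSD1 at 0.838, GLP2 at 0.806, OPR4 at 0.783, GER6 at 0.775 and MPH1 at 0.767. No p-value is attached to these correlations, which describe likeness over these arrays.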

How the data were processed

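Root RNA of 17 plants was labelled by a 3' IVT kit and hybridised to Affymetrix rice arrays, per the labels' protocols. The deposited table holds log2 values made by the authors with RMA, per the submitters' processing notes, and the software was not given in the sources used here. No depth applies to arrays, and the number of arrays limits the precision. Samples within a group are biological replicates, per the labels.

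Of 57381 probe sets, 123 controls were left out and 57258 were fitted with no filter in limma 3.58.1 (R 4.3.3), with a mean per group over all 17 arrays, 11 residual and 3.83 prior degrees of freedom. P-values are two-sided, adjusted by Benjamini-Hochberg over all 57258 probe sets and called under 0.05. The fit was tested on simulated data. That the array sets were normalised apart is inferred from the distributions and is not stated in the labels.

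Probe sets were named through the platform annotation and, by gene identifier, a RefSeq table: 22436 probe sets have 1 gene, 95 several and 34727 none listed. Where a list gene has several probe sets, the one with the highest mean signal was used. Members and lists were chosen with earlier results of these data known. Named are the members, list genes called in any comparison, the extreme values of each list group in the mutant comparisons, and the 5 named genes most like each member. PHR1, SPX1 and the second probe sets were named for comparison after their values were seen. Of 82 phosphate list names, 47 are not in the gene table used here, nor are 5 of the marker names. The names OsVPE1, which the table gives to a processing enzyme, and ARF16, which it gives to 2 genes, were left out. Alternatives were other groupings of arrays in the fit, renewed quantile normalisation, a signal filter, another variance prior, array weights, other probe sets and leaving out each plant. No sequences or coordinates are given, since no genome or sequence table was used, and the gene table served only for names and for which genes lie next to each other. Figures used Python 3.11.15 with matplotlib 3.10.9.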

Additional observations from a re-analysis of the deposited data

Results flagged for a closer look

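The 3 members, the 20 other phosphate genes and LOC4331637 were searched for opposite directions in the gs1;1 lines. In 5 genes every homozygote of one gs1;1 line lay on one side of its null mean and every homozygote of the other line on the other side. The share of all probe sets with such a pattern was not counted, so nothing is read from that number. OsSPX2 had differences of 0.24 in NC2373 and -0.48 in ND8037, which is -0.72 as ND8037 minus NC2373, and no test is given for it as a member. PHO1-3, with mean signals below the array medians in every group, differed by -0.53 between lines (0.47 and -0.06, limma adjusted p of the difference 0.245). SIZ2 differed by -0.30 (0.06 and -0.24, limma adjusted p = 0.272). SPX1 differed by 0.30 (-0.23 and 0.07, limma adjusted p = 0.313). SPX5, also with mean signals below the array medians in every group, differed by 0.29 (-0.24 and 0.06, limma adjusted p = 0.398). None of the 4 tested differences passed the threshold, and the lines also differ in array set.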

How the results depend on the processing

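All 36 member differences under renewed quantile normalisation and array weights stayed within 1 SD of the reported values, and so did all but 4 with a plant left out. Leaving out each plant in turn, gs1;2 differences ran from 0.89 to 1.17 for PHT1-2/PHT1-4, 0.77 to 1.17 for OsSPX2 and 0.62 to 1.09 for OsPHR3, and ND8037 differences from -0.76 to -0.61, -0.70 to -0.33 and -1.19 to -0.99. NC2373 differences ran from -0.39 to 0.32, 0.06 to 0.42 and -0.39 to -0.08, and the line differences from -1.01 to -0.30, -0.94 to -0.54 and -1.02 to -0.71. Differences averaged over lines ran from -0.54 to -0.18, -0.23 to -0.03 and -0.74 to -0.59. With 1 NC2373 homozygote left, that plant is assumed to vary like the other groups. Members called ran from 1 to 3 in gs1;2, 1 to 2 in ND8037, 0 to 0 in NC2373 and 1 to 2 for the mean over lines. With only the groups compared or only their array set, 1 member was called in gs1;2. With only probe sets above the median signal, or with array weights, 2 were called for the mean over lines. Of the other phosphate genes, 1 to 4 were called for the mean, 0 to 1 in NC2373, 0 to 2 in ND8037 and 0 to 1 in gs1;2 (1 without wild-type plant 629) with a plant left out. With only the groups compared or only the array set, 0 were called in NC2373 and 1 in ND8037. SPX4 then had adjusted p-values of 0.179 and 0.0547 in NC2373 and 0.0586 in ND8037. With the dimmest probe set of each gene, 1 was called for the mean and 0 in each line. The cause was not tested. Each member has 1 probe set, so no other could be tried. No paired analysis was possible because the replicate numbers name single plants and no groups share them.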
